A study of Mus musculus with 4 samples.

Results

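The 10 non-coding genes described here lie beside or opposite genes that direct the patterning of the head. They are Gm26872, Gm28050, AI606473, B230323A14Rik, Nkx2-2os, Gm30731, Gm26793, Raxos1, Gm48159 and A730094K22Rik, taken by name from a table of 33708 autosomal genes. They were chosen by their log2 RPKM values in the 2 genotypes, and by those of the coding gene beside them, both lower in the mutant. The difference between the genotypes in these genes is therefore a description and no evidence of its own direction. RNA was sequenced from the frontonasal prominence (FNP), the embryonic tissue of the nose and snout, of 4 FVB/NJ mouse embryos at E10.5, all with 29 somites. The 2 genotypes compared had 2 embryos each. The Smchd1+/+ embryos (WT) were 1 female and 1 male by the labels, and the Smchd1 MommeD43/MommeD43 embryos (MD43) were 2 males. MommeD43 is a missense allele induced by ENU mutagenesis and present in every cell of the animal. Its protein, SMCHD1, binds chromatin and helps to keep genes silent on the inactive X chromosome and in some autosomal clusters. WT replicate 2 and MD43 replicate 2 shared a mother. Another record of the study names WT replicate 2 a female, and in that case sex and genotype cannot be told apart.

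Many regulators of development have a non-coding transcript close by. Some of these transcripts start back to back with the coding gene from a shared region and run away from it (divergent), some are transcribed from the opposite strand across the coding gene (antisense), and some lie further along the same strand. Such transcripts are often present in the same tissue as their neighbour, at a lower level, and for most of them no function is known. The coding genes here encode homeodomain, LIM, forkhead, POU and zinc finger transcription factors, a fibroblast growth factor and an R-spondin, several of them known from the developing forebrain, hypothalamus and eye.

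Each genotype had 1 value per gene, the log2 RPKM (reads scaled for exon length and library size, on the log2 scale), into which the authors merged both libraries. No spread between embryos can be given, and no difference below was tested. From this value the product of the counts in both libraries could be worked back. Reads are given below as its square root, the geometric mean of both libraries, and the counts of the single libraries are given where the product allows 1 solution. The depth recovered was 16055882 reads for WT and 22328791 for MD43, so that equal levels give 1.39 times as many reads in MD43. A value after ± is the smallest standard error of a log2 difference that counting alone allows, without variation between embryos. Smchd1 itself was at 3.31 log2 RPKM in WT and 3.30 in MD43. The tissue is a mixture, and in such bulk RNA fewer cells of a type and less RNA per cell cannot be told apart.

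All 10 non-coding genes had a lower value in MD43 than in WT, and all 10 were at least 2-fold lower. Where either genotype had 10 reads or more, 104 of 2133 non-coding genes were at least 2-fold lower (4.88%) and 74 (3.47%) higher to that degree. Over all genes with such reads, 382 of 15382 were at least 2-fold lower (2.48%) and 252 higher (1.64%). Lower to any degree were 53.2% of the non-coding genes, 48.1% of the coding genes and 48.8% of all genes with such reads. Most of the 10 genes have a mean of at most 50 reads over both genotypes. Of 3104 genes of the table with such a mean, 290 were at least 2-fold lower and 231 higher. The median log2 difference (MD43 minus WT) of the 10 genes was -3.77, or -2.83 with genotypes at or under 3 reads set to 3, beside -0.04 over the 2133 non-coding genes and 0.01 over the 15382 genes. Their values ranged from -5.37 for Gm26872 to -1.25 for Gm26793. Because the genes were listed from this contrast, these counts say nothing beyond the choice. In 6 of the 10 (Gm26872, AI606473, B230323A14Rik, Nkx2-2os, Gm30731 and A730094K22Rik) no single MD43 library held more than 4 reads, and the size of the listed difference then rests on very few reads.

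**Figure D1:**
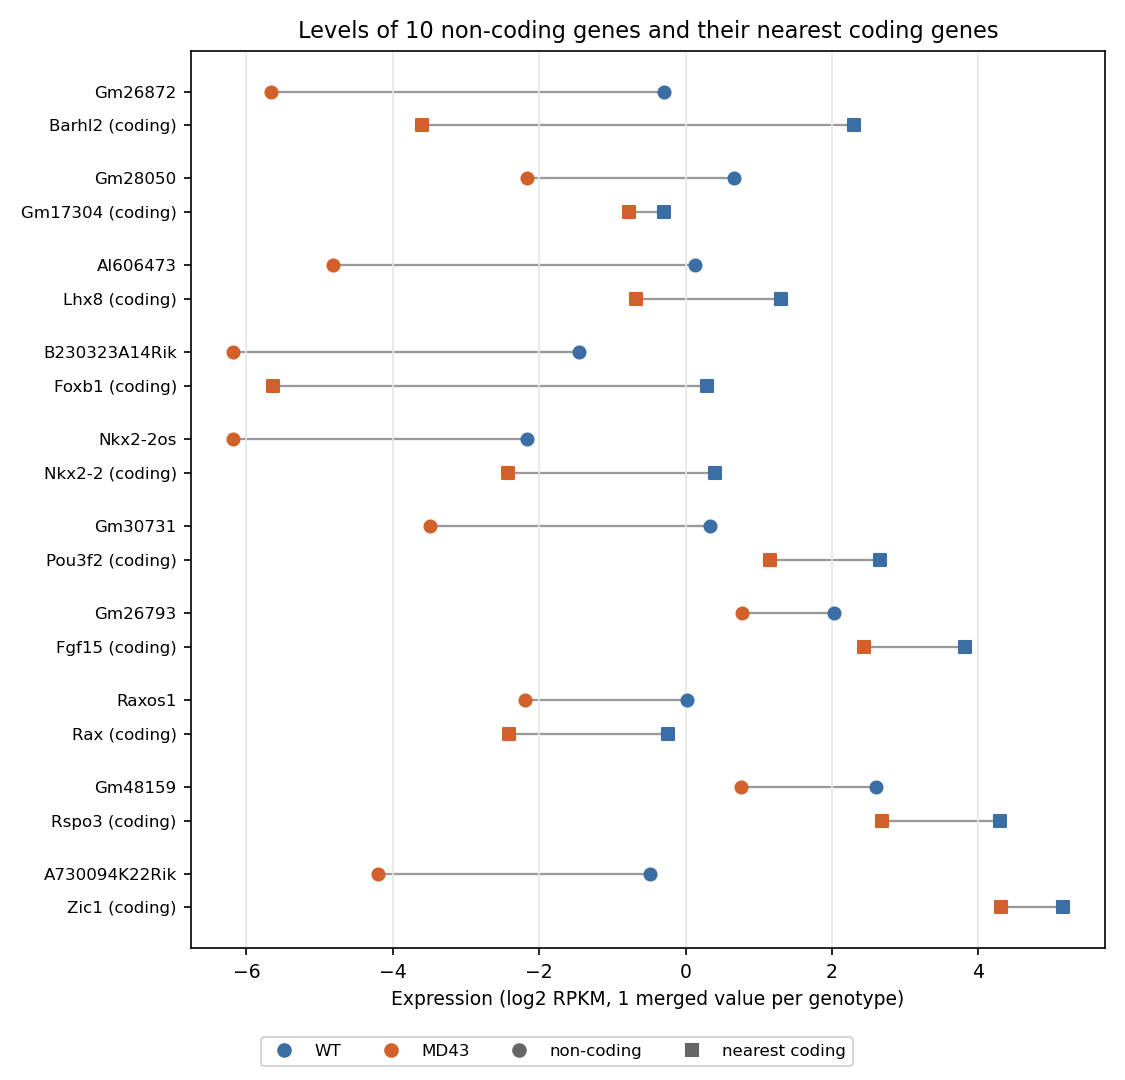
Expression of the 10 non-coding genes (circles) and of the coding gene nearest to each (squares) in log2 RPKM on the horizontal axis, with WT in blue and MD43 in orange, 1 merged value per genotype and no error bars. In every row the MD43 point lies to the left of the WT point, and the coding gene lies to the right of its non-coding neighbour in WT for all pairs but Gm28050 with Gm17304, which has no reads, and Raxos1 with Rax. The shift of Gm17304 is the -0.48 listed for genes without reads, which comes from depth alone.

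**Figure D2:**
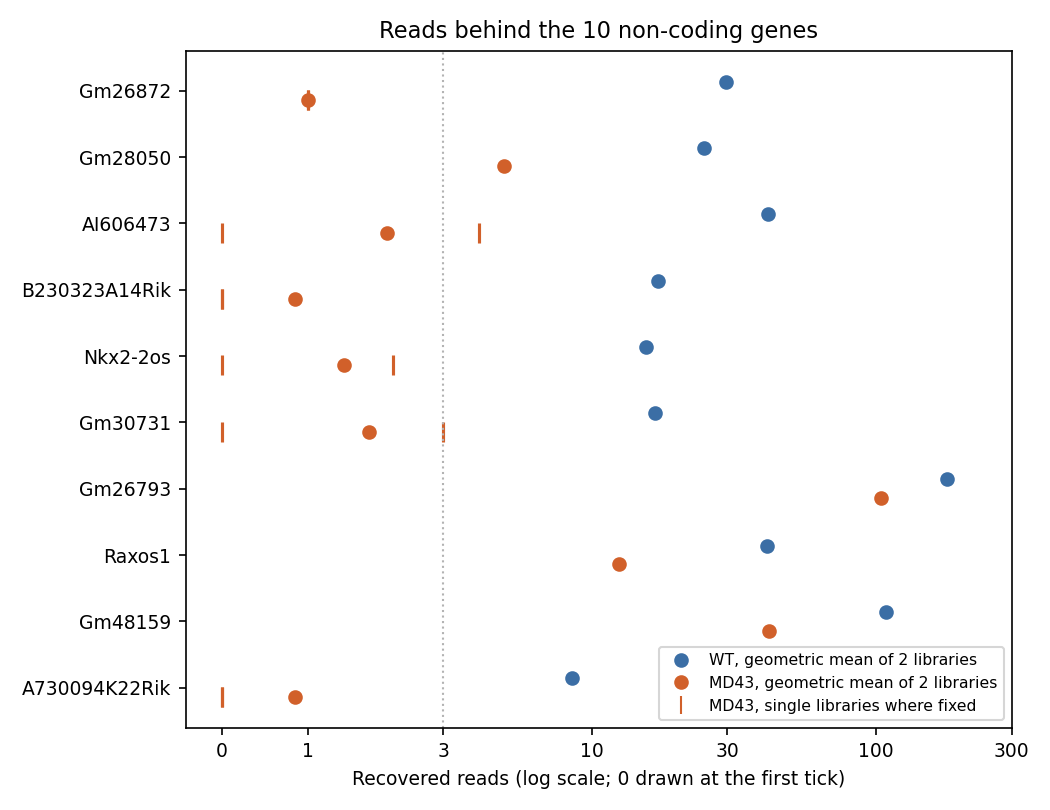
Reads behind the 10 non-coding genes on a log axis, as the geometric mean of the 2 WT (blue) and the 2 MD43 (orange) libraries, with a library of 0 reads counted as 0.9 in the mean. Upright marks show the single MD43 libraries of the 6 genes in which the product fixes them, all at 0 to 4 reads, and the dotted line marks 3 reads.

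The 2 divergent transcripts were read from the strand opposite to their coding neighbour and ran away from it. AI606473 (ENSMUSG00000093738, GRCm38.p6 chromosome 3, 154330821 to 154334254, plus strand, processed transcript, 2386 bases of exon) starts 162 bp from the start of Lhx8 in GENCODE. Lhx8 is a LIM homeodomain factor required for cholinergic neurons of the ventral forebrain and for palate closure. AI606473 was at 0.12 log2 RPKM in WT and -4.81 in MD43, a log2 difference of -4.94 ± 0.76. It had 0 reads in one MD43 library and 4 in the other. In WT the mean was 41.7 reads, and the most even pair of counts that gives this value is 26 and 67, so the 2 WT libraries differed from each other at least 2.58-fold in raw reads. Over the 93 WT reads of this pair, the smallest sum possible, and the 4 MD43 reads, the WT level after scaling for depth was 32.3 times the MD43 level (exact 95% counting interval 12.2 to 121). Lhx8 was at 1.31 log2 RPKM in WT and -0.67 in MD43, on 101 and 35.5 reads, or 3.95-fold lower. The log2 difference of AI606473 relative to that of Lhx8 was thus -2.95 ± 0.78. The region between both starts is shown because each gene is read away from it. By RefSeq the starts lie 261 bp apart, and the 250 bases before Lhx8 fill nearly all of that space (chr3:154330561-154330810, minus strand, GRCm38.p6), with no match to the searched motifs described below:
Lhx8 and AI606473: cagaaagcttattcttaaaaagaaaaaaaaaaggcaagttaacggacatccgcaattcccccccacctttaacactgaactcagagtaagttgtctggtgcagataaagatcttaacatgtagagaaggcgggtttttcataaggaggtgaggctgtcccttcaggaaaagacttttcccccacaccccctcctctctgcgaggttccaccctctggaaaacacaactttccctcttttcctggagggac

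Gm30731 (ENSMUSG00000107859, chromosome 4, 22490548 to 22493126, plus strand, lincRNA, 825 bases of exon), listed by RefSeq also as Pnky, starts 2182 bp from the start of Pou3f2. Pou3f2 encodes a POU factor (Brn2) of neural progenitors and of the hypothalamus, and Pnky is known as a nuclear RNA of neural stem cells. Gm30731 was at 0.34 log2 RPKM in WT and -3.49 in MD43, a log2 difference of -3.82 ± 0.83. It had 0 and 3 reads in the MD43 libraries and a mean of 16.7 in WT, where the most even pair is 14 and 20. The ratio of the summed reads, 34 against 3, was 15.8 after scaling for depth (exact 95% counting interval 4.96 to 80.2). Pou3f2 was at 2.65 log2 RPKM in WT and 1.15 in MD43, on 563 and 277 reads, a log2 difference of -1.50 ± 0.07. The non-coding gene had the lower level of the pair in WT (4.97-fold below Pou3f2). Its listed difference was larger by -2.33 ± 0.84, or by -1.46 with its MD43 reads set to 3. Gm30731 and AI606473 were both chosen for lower values in MD43, so their distances from their neighbours are a description. The 250 bases before each start are shown because the pair shares the interval between them, with CCAAT and GGGCGG matches on either strand in capitals (Gm30731 at chr4:22490298-22490547, plus strand, and Pou3f2 at chr4:22488367-22488616, minus strand, GRCm38.p6):
Gm30731: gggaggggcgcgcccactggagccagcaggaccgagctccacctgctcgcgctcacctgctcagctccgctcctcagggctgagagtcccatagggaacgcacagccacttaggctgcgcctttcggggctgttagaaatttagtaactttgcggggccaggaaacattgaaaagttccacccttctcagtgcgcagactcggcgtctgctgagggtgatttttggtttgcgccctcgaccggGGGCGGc
Pou3f2: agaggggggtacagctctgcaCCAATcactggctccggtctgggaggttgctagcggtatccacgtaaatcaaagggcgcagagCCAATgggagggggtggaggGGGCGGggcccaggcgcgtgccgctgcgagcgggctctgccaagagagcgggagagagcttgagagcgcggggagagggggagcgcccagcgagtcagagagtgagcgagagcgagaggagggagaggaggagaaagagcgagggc

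Gm26872 and Gm28050 lie one after the other beyond the start of Barhl2, on its strand. Barhl2 is a homeodomain factor of the diencephalon, spinal cord and retina. Gm26872 (ENSMUSG00000097018, chromosome 5, 106465800 to 106471007, minus strand, lincRNA, 2261 bases of exon) is 7634 bp from Barhl2, and the start sites are 12841 bp apart. Its value was -0.29 log2 RPKM in WT and -5.66 in MD43, a log2 difference of -5.37 ± 1.04. Each MD43 library held 1 read, against a mean of 29.7 reads in WT. With the smallest WT sum the product allows, 63 reads against 2, the ratio after scaling for depth was 43.8 (exact 95% counting interval 11.6 to 370). Barhl2 was at 2.30 log2 RPKM in WT and -3.61 in MD43, on 183 and 4.24 reads, a log2 difference of -5.91 ± 0.50. The differences of Gm26872 and Barhl2 were 0.54 ± 1.15 apart as listed, and 2.12 apart with the MD43 reads of Gm26872 set to 3, so how close they are cannot be seen at this depth. The region before the start of Barhl2 is shown as the one with the most CG pairs among those read here, with its 3 GGGCGG matches in capitals (chr5:106458167-106458416, minus strand, GRCm38.p6):
Barhl2: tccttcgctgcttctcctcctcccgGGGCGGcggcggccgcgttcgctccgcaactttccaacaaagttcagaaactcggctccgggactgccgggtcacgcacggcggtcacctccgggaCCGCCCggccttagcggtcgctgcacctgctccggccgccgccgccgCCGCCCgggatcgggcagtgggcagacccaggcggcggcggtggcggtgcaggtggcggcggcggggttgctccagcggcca

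Gm28050 (ENSMUSG00000099061, chromosome 5, 106500894 to 106574718, minus strand, lincRNA, 984 bases of exon) lies 29.9 kb beyond Gm26872. It was at 0.66 log2 RPKM in WT and -2.17 in MD43, on 24.9 and 4.90 reads, a log2 difference of -2.82 ± 0.50 or 7.07-fold lower. The nearest coding gene by the bounds in the table is Gm17304, 34380 bp away, in which no library held a read, so that no coding value can be set beside Gm28050 there. The nearest coding gene with reads is Zfp644, a zinc finger gene 42021 bp away, with a log2 difference of -0.10 ± 0.03 on 1630 and 2115 reads. Barhl2 lies 42.7 kb away on the other side, and it is the nearest coding gene when the shorter RefSeq bounds of Gm28050 (106500893 to 106515981) are used. Gm28039, a processed transcript on the same strand that shares 111 bp of exon with Gm28050, had a log2 difference of -0.31 ± 0.19. Gm28050 thus stood between a coding gene that was far lower in MD43 and one that was nearly equal.

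A730094K22Rik (ENSMUSG00000102406, chromosome 9, 91350214 to 91350953, minus strand, 740 bases in 1 exon) is annotated as TEC, a class for transcripts that still await experimental support. It lies 7105 bp downstream of Zic1, on the same strand. Zic1 and Zic4 are zinc finger genes of the dorsal neural tube and cerebellum that overlap head to head. A730094K22Rik was the only one of the 10 with fewer than 10 reads in both genotypes, with a mean of 8.49 in WT and 0 reads in both MD43 libraries. Its listed values were -0.49 and -4.20 log2 RPKM. Set against a floor of 3 reads per library, it was at least 3.93-fold lower in MD43. Zic1 was at 5.16 log2 RPKM in WT and 4.32 in MD43, a log2 difference of -0.84 ± 0.03 or 1.80-fold lower, and in WT it was 50.1-fold above A730094K22Rik. By start site the nearest coding gene is Zic4 (11460 bp), which was 2.20-fold lower, at 2.61 and 1.47 log2 RPKM. RefSeq draws A730094K22Rik as a longer gene (91323564 to 91351228) that also takes in Gm37457 and Gm37040 on the same strand. Those rows held more reads, with Gm37457 at 35.0 in WT and 6.63 in MD43 (log2 difference -2.88 ± 0.43) and Gm37040 at 24.2 and 13.0 (-1.38 ± 0.35). The regions before both starts are shown for their contrast in CG content, with CCAAT and GGGCGG matches in capitals (A730094K22Rik by the RefSeq start at chr9:91351229-91351478, minus strand, and Zic1 at chr9:91365769-91366018, minus strand, GRCm38.p6):
A730094K22Rik: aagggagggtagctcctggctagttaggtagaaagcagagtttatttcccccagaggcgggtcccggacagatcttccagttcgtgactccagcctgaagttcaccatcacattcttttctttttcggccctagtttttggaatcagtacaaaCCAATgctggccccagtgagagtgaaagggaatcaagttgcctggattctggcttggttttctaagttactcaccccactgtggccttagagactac
Zic1: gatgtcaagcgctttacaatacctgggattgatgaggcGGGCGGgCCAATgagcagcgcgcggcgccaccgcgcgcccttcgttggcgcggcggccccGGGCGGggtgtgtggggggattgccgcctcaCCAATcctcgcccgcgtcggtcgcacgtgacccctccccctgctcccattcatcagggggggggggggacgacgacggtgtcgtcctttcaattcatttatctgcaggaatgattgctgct

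The 5 antisense genes overlap their coding neighbour on the opposite strand. The libraries kept strand, but whether strand was used in counting is not stated, so reads in shared exons can have been counted for both genes of a pair. B230323A14Rik (ENSMUSG00000097623, chromosome 9, 69758740 to 69830845, plus strand, 2931 bases of exon) overlaps Foxb1, a forkhead gene of the mammillary region and the neural tube. It shares 418 bp of exon, or 14.3% of its exon length. No read was found in either MD43 library, against a mean of 17.1 in WT, which is at least 7.95-fold lower by the floor of 3 reads. Its listed values were -1.46 and -6.18 log2 RPKM. Foxb1 had 0 and 2 reads in MD43 and a mean of 58.8 in WT. With the smallest WT sum the product allows, 118 reads against 2, the ratio after scaling for depth was 82.1 (exact 95% counting interval 22.2 to 685). Both genes of the pair were thus near 0 in MD43, and which of them differed more cannot be seen at this depth.

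Nkx2-2os (ENSMUSG00000086509, chromosome 2, 147184083 to 147331681, plus strand, 4345 bases of exon) overlaps Nkx2-2, a homeodomain gene of the ventral neural tube and hypothalamus, by 10161 bp. Only 278 bp of exon (6.40% of its exon length) are shared. It was at -2.17 log2 RPKM in WT and -6.18 in MD43, with 0 and 2 reads in the MD43 libraries and a mean of 15.5 in WT. The summed reads, 31 against 2 at the smallest WT sum, gave a ratio of 21.6 after scaling for depth (exact 95% counting interval 5.49 to 186). Nkx2-2 was at 0.41 log2 RPKM in WT and -2.42 in MD43, on 61.2 and 11.96 reads, or 7.12-fold lower. The log2 difference of Nkx2-2os was -1.17 ± 0.97 relative to that of Nkx2-2, little more than its counting error.

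Gm26793 (ENSMUSG00000096999, chromosome 7, 144894560 to 144897461, minus strand, 2732 bases of exon) crosses the first part of Fgf15, a growth factor gene of the diencephalon and midbrain. It shares 761 bp of exon, or 27.9% of its exon length. Gm26793 had the most reads of the 10 genes, 178 in WT and 104 in MD43, and the smallest difference, -1.25 ± 0.13, from 2.02 to 0.77 log2 RPKM. Fgf15 was at 3.82 log2 RPKM in WT and 2.43 in MD43, on 695 and 369 reads, a log2 difference of -1.39 ± 0.07. The differences of this pair were 0.14 ± 0.14 apart. Ratios were thus nearly the same in both genes, 2.38-fold for Gm26793 and 2.62-fold for Fgf15.

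Raxos1 (ENSMUSG00000097907, chromosome 18, 65937538 to 65940447, plus strand, 2547 bases of exon) overlaps Rax, the homeodomain gene of the eye field and hypothalamus, and shares more exon with its neighbour than any other of the 5. Of its exon length, 63.0% (1604 bp) is also exon of Rax. It was at 0.02 log2 RPKM in WT and -2.19 in MD43, on 41.4 and 12.5 reads, a log2 difference of -2.21 ± 0.33. Rax was at -0.24 log2 RPKM in WT and -2.41 in MD43, on 79.4 and 24.5 reads, a log2 difference of -2.17 ± 0.24. Here the non-coding gene had the slightly higher level per length in both genotypes. The differences of the pair were -0.03 ± 0.41 apart, and with this much shared exon they may come in part from the same reads.

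Gm48159 (ENSMUSG00000110831, chromosome 10, 29534717 to 29614471, plus strand, 1113 bases of exon) overlaps Rspo3, which encodes an R-spondin, a secreted enhancer of WNT signalling. It shares 404 bp of exon, or 36.3% of its exon length. Gm48159 had the highest level of the 10 genes in WT, 2.60 log2 RPKM, and 0.75 in MD43. On 108 and 41.9 reads its log2 difference was -1.84 ± 0.19, or 3.59-fold lower. Rspo3 was at 4.30 log2 RPKM in WT and 2.69 in MD43, on 975 and 444 reads, a log2 difference of -1.61 ± 0.06. The differences of the pair were -0.24 ± 0.19 apart.

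Across the 9 pairs whose coding gene had reads, the coding gene was lower in MD43 in all 9 and at least 2-fold lower in 8. The exception was Zic1. Among all coding genes with at least 10 reads, 278 of 13245 were at least 2-fold lower (2.1%) and 176 higher (1.33%). Since the list was drawn up around lowered coding genes, this count too belongs to the choice. In 3 pairs the listed difference of the non-coding gene lay furthest below that of its neighbour, AI606473 (-2.95), Gm30731 (-2.33) and A730094K22Rik (-2.87). Their MD43 libraries held 0 to 4 reads, and with genotypes at or under 3 reads set to 3 these distances were -2.29, -1.46 and -1.13. The choice of genes for lower values in MD43 also bears on these distances. For A730094K22Rik, without a read in MD43, the listed distance rests on the value that stands in for 0 reads. In the other 6 pairs the listed distance ranged from -1.17 (Nkx2-2os) to 1.20 (B230323A14Rik). With the floor of 3 reads it was -0.01 for Nkx2-2os, 1.78 for B230323A14Rik and 2.12 for Gm26872, while Gm26793, Raxos1 and Gm48159 had more reads and kept their values. As listed, the 3 antisense genes with the most reads in MD43, Gm26793, Raxos1 and Gm48159, lay closest to their neighbour. They also share the largest fraction of their exons with it (27.9 to 63.0%), and the part of shared reads in this was not tested. Nkx2-2os, which shares 6.40% of its exon length, had 0 and 2 reads in the MD43 libraries. Its distance of -0.01 is set by the floor of 3 reads and cannot be compared with theirs.

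**Figure D3:**
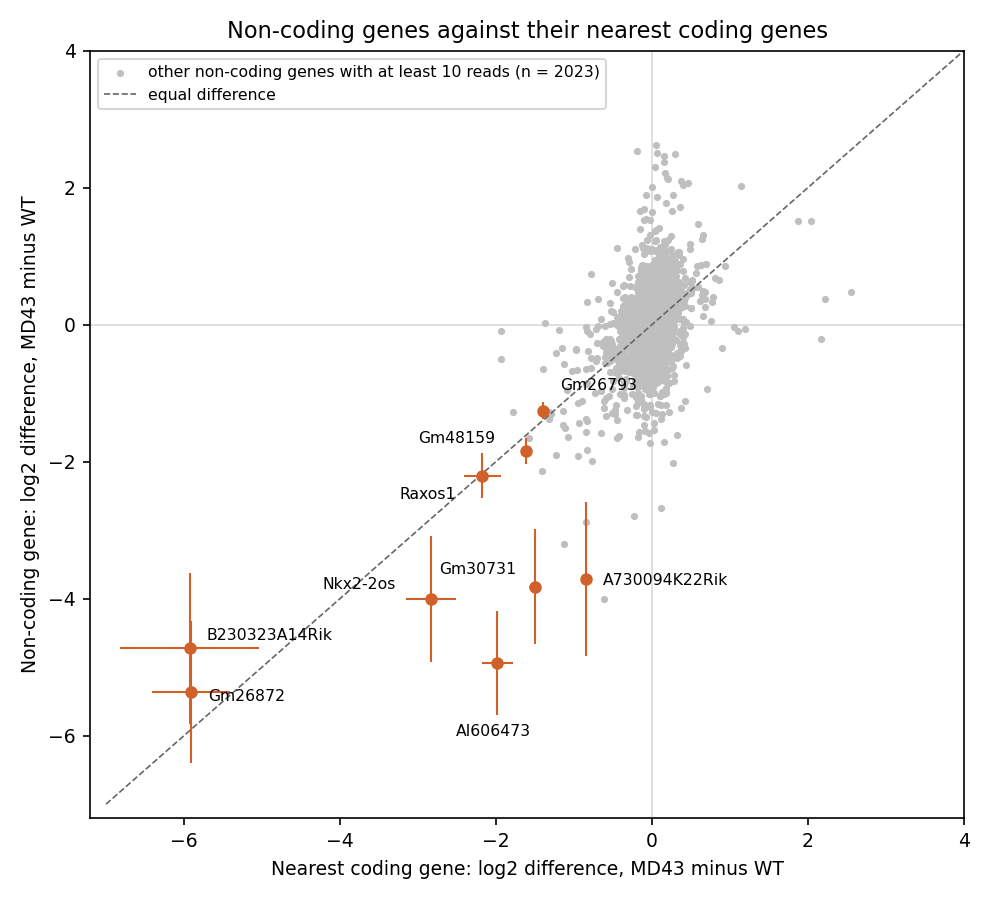
Log2 difference (MD43 minus WT) of non-coding genes on the vertical axis against that of their nearest coding gene on the horizontal axis, for 9 of the 10 genes (orange, bars show 1 counting SE) and for 2023 other non-coding genes with at least 10 reads whose coding neighbour also had them (grey). Gm26793, Raxos1 and Gm48159 lie within 0.24 of the line of equal difference, while AI606473, Gm30731 and A730094K22Rik lie more than 2 units below it.

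To see how other non-coding genes stood, the same pairing was made over the whole table without the 10 genes. Of 2124 non-coding genes with at least 10 reads, 95 were at least 2-fold lower in MD43 (4.47%). In 87 of these the nearest coding gene also had 10 reads, and it was at least 2-fold lower in 12 (13.8%) and lower to any degree in 67. Of the 87, 35 overlap the coding gene on the opposite strand, where reads can have been counted for both. They hold 8 of the 12 (22.9% of 35). Gm37477 and Gm29478 beside Zic4, at the locus of A730094K22Rik, are also among the 12. Over all coding genes with at least 10 reads, 48.1% were lower to any degree. Of 1936 non-coding genes that were not 2-fold lower, 10 had a coding neighbour at least 2-fold lower. The layout of the 10 genes was common in the table. Their coding neighbour was on the opposite strand in 8 of 10 (78.5% of all non-coding genes with reads), overlapped them from that strand in 5 of 10 (62.9%), and lay within 10 kb in 9 of 10 (91.0%). Start sites within 5 kb on opposite strands were found in 6 of the 10 and in 30.2% of all, a measure of annotation that the choice of genes near developmental regulators can also set.

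At most loci no gene beyond the pair, among those with at least 10 reads within 250 kb, was at least 2-fold lower in MD43. Apart from the nearest ones, 19 coding genes with at least 10 reads lay within 250 kb of the 10 genes. Of these 13 (68.4%) were lower and 6 higher in MD43, beside 48.1% lower over all coding genes with such reads. Their median log2 difference was -0.10. Over all coding genes 2.1% were at least 2-fold lower, and 2 of the 19 were. Those were Zic4 and Slc44a5, a choline transporter-like gene 59.1 kb from AI606473, at -1.61 log2 RPKM in WT and -2.82 in MD43 on 37.7 and 22.6 reads (log2 difference -1.21 ± 0.27). The most positive value, 0.24, was that of Ccnd1, the cyclin D1 gene near Gm26793. Around Raxos1, Nkx2-2os, B230323A14Rik and Gm48159 the other coding genes lay between -0.31 and 0.04. Over all non-coding genes with at least 10 reads, 53.2% were lower to any degree and 4.88% at least 2-fold. A further 11 non-coding genes lay in these windows, 9 lower and 2 higher. The 4 of them that were at least 2-fold lower all lay at the Zic locus, Gm37457, Gm37040, Gm37477 (log2 difference -1.26 ± 0.23) and Gm29478 (-1.46 ± 0.37). With A730094K22Rik, Zic1 and Zic4, the Zic locus thus had 7 annotated genes with a lower value in MD43, from -0.84 for Zic1 to the listed -3.71 for A730094K22Rik. They need not be 7 separate transcripts. RefSeq draws Gm37457 and Gm37040 within A730094K22Rik, and Gm37477 starts within the bounds of Zic4.

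**Figure D4:**
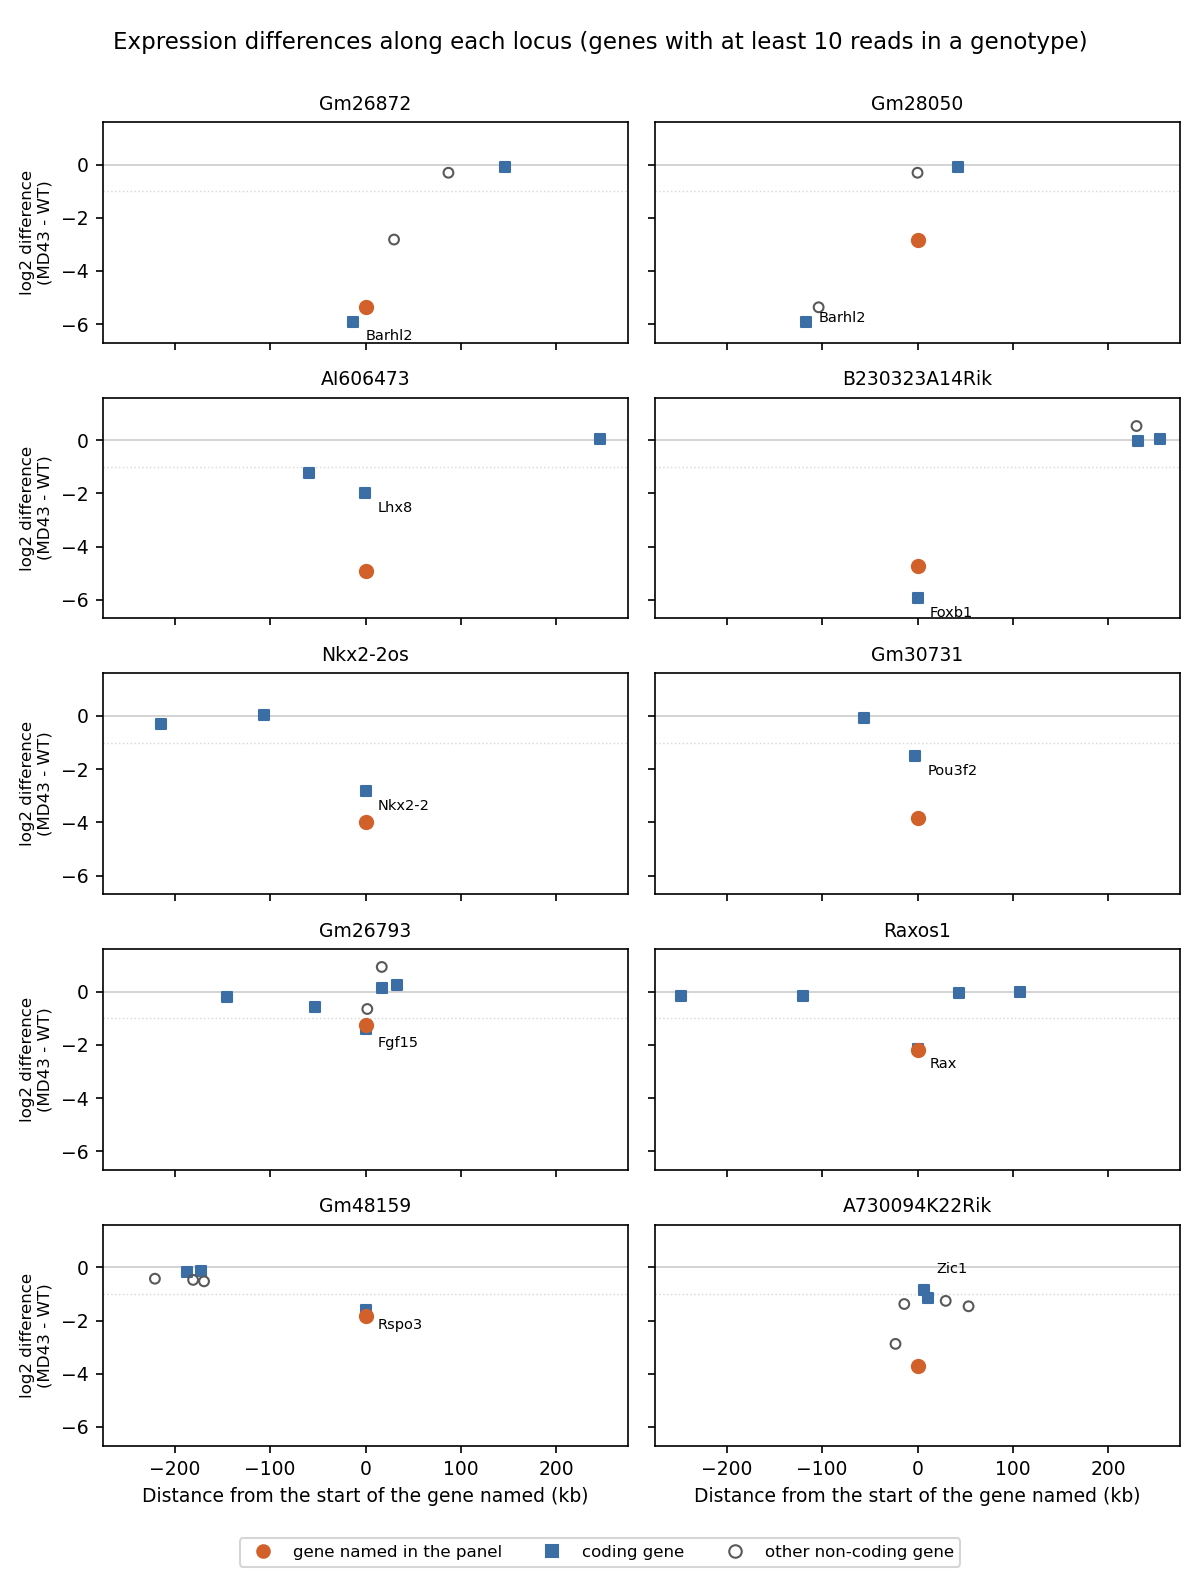
Log2 difference (MD43 minus WT) against distance in kb from the start of each of the 10 non-coding genes, 1 panel per gene, for genes within 250 kb that reached 10 reads (squares, coding; open circles, non-coding; filled orange, the gene named in the panel, which for A730094K22Rik has fewer reads). Genes are placed at their nearer end, or at 0 where they overlap, and the dotted line marks 2-fold lower. Low points away from distance 0 are seen in the panels of the neighbours Gm26872 and Gm28050, where Barhl2 lies 117 kb from the start of Gm28050, at Slc44a5 59.1 kb from AI606473, and at the Zic locus up to 53.5 kb.

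The sequence before the start site was read from RefSeq for the genes listed there, Gm28050, AI606473, Nkx2-2os, Gm30731, Gm26793 and A730094K22Rik of the non-coding genes and Barhl2, Lhx8, Nkx2-2, Pou3f2, Zic1 and Zic4 of the coding ones. Gm26872, B230323A14Rik, Raxos1, Gm48159, Gm17304, Foxb1, Fgf15, Rax and Rspo3 were not read. In the 250 bases upstream, the observed over expected number of CG pairs was 0.373 in the median of 32851 RefSeq starts, and 34.0% reached 0.6, a value often used to mark CpG-rich promoters. Barhl2 (1.03), Zic1 (0.995), Pou3f2 (0.761), Gm30731 (0.708) and Nkx2-2os (0.605) lay above 0.6. Nkx2-2 (0.539) and Zic4 (0.376) lay between this value and the median. AI606473 (0.322), Lhx8 (0.309), A730094K22Rik (0.264), Gm26793 (0.245) and Gm28050 (0.165) lay below the median. The non-coding genes thus had no CG content in common. In the pairs with back-to-back starts, both genes were CG-rich at Pou3f2 and CG-poor at Lhx8. The 2 windows at Lhx8 hold nearly the same bases, so they could hardly differ. The searched motifs, on both strands, were TAATTA, the core bound by many homeodomain proteins (in 4.84% of all windows), TATAAA (12.4%), CCAAT (33.9%) and GGGCGG, the GC box (32.7%). TAATTA was found once, before Nkx2-2os, and TATAAA in none of these windows. GGGCGG was found once each before Nkx2-2os, Gm30731, Nkx2-2 and Pou3f2, and CCAAT once before A730094K22Rik. Before Pou3f2 there were also 2 CCAAT matches and before Zic1 2 matches of each. A match of these letters is no sign that a protein binds there.

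Other non-coding genes beside developmental regulators were then listed by name. Of 54 such genes 42 were in the table, 7 of them without a read, and 23 reached 10 reads in either genotype. Of the 23, 16 were lower and 7 higher in MD43, the difference passed 2-fold in 5 of the lower and 1 of the higher, and the median log2 difference was -0.45, beside -0.04 over all non-coding genes. Of all non-coding genes with such reads, 53.2% were lower and 4.88% at least 2-fold lower. Foxl2os, opposite the forkhead gene Foxl2, was at -0.61 log2 RPKM in WT and -1.98 in MD43 (log2 difference -1.37 ± 0.29). Rmst, a long RNA of neural progenitors, was at 1.27 and -0.08 log2 RPKM on 288 and 157 reads (-1.35 ± 0.10). Otx2os1 beside Otx2 (-1.21 ± 0.45) and Zeb2os opposite Zeb2 (-1.18 ± 0.20) were also lower, while Dlx4os had 2.12 reads in WT and 11.96 in MD43.

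Relatives of the coding neighbours, from the same gene families, were lower more often than higher. Of 23 listed, 16 had at least 10 reads, 12 lower and 4 higher. Among all coding genes with such reads 48.1% were lower. The median log2 difference of the relatives was -0.56, beside 0.01 over all coding genes. Fgf3 among the relatives lies 50.1 kb from Gm26793 and is also one of the 19 genes near the 10. Lhx6, the relative of Lhx8 in the ventral forebrain and first arch, had a log2 difference of -1.55 ± 0.22 on 69.8 and 33.2 reads. Nkx2-9, a ventral neural tube gene, was at -1.02 ± 0.29 and Zic2 at -0.85 ± 0.05. Rspo4 was the only relative at least 2-fold higher, with 2.45 reads in WT and 15.4 in MD43. Members of a family did not share 1 direction, since Rspo1 was at 0.25 ± 0.05 and Rspo2 at -0.57 ± 0.05, while Rspo3 was at -1.61.

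Several marker lists of the tissues in or around the FNP differed between the genotypes together with these genes. Among all coding genes with at least 10 reads, 48.1% were lower to any degree and 2.1% at least 2-fold. Of 15 genes of the diencephalon, hypothalamus and optic vesicle with reads, 12 were lower in MD43, 5 at least 2-fold, with a median log2 difference of -0.45. Their summed RPKM was 122 in WT and 118 in MD43. Lhx2, the highest of them at 5.21 log2 RPKM in WT and 5.70 in MD43, weighs most in this sum and was higher in MD43. Otp, a hypothalamic homeodomain gene, was at -1.57 ± 0.31 and Foxd1, a forkhead gene of the ventral diencephalon and retina, at -1.44 ± 0.09, while Lhx2 was at 0.49 ± 0.02. All 6 red blood cell genes were higher, with a summed RPKM of 3059 in WT and 5817 in MD43, and 7 of 8 surface ectoderm genes were higher, with a sum of 121 and 187. The telencephalon list had a sum of 88.8 and 100.0. These lie further apart than the sums of the diencephalon, hypothalamus and optic vesicle list with Lhx2 in it. Of its 7 genes 3 were lower, 2 of them at least 2-fold. The young neuron (103 and 102) and frontonasal mesenchyme sums (190 and 189) were nearly equal, and 4 of 7 and 6 of 12 of their genes were lower. No defining marker of these lists was at 0 in either genotype. The part of tissue composition in the lower values of the 10 genes was not tested.

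**Figure D5:**
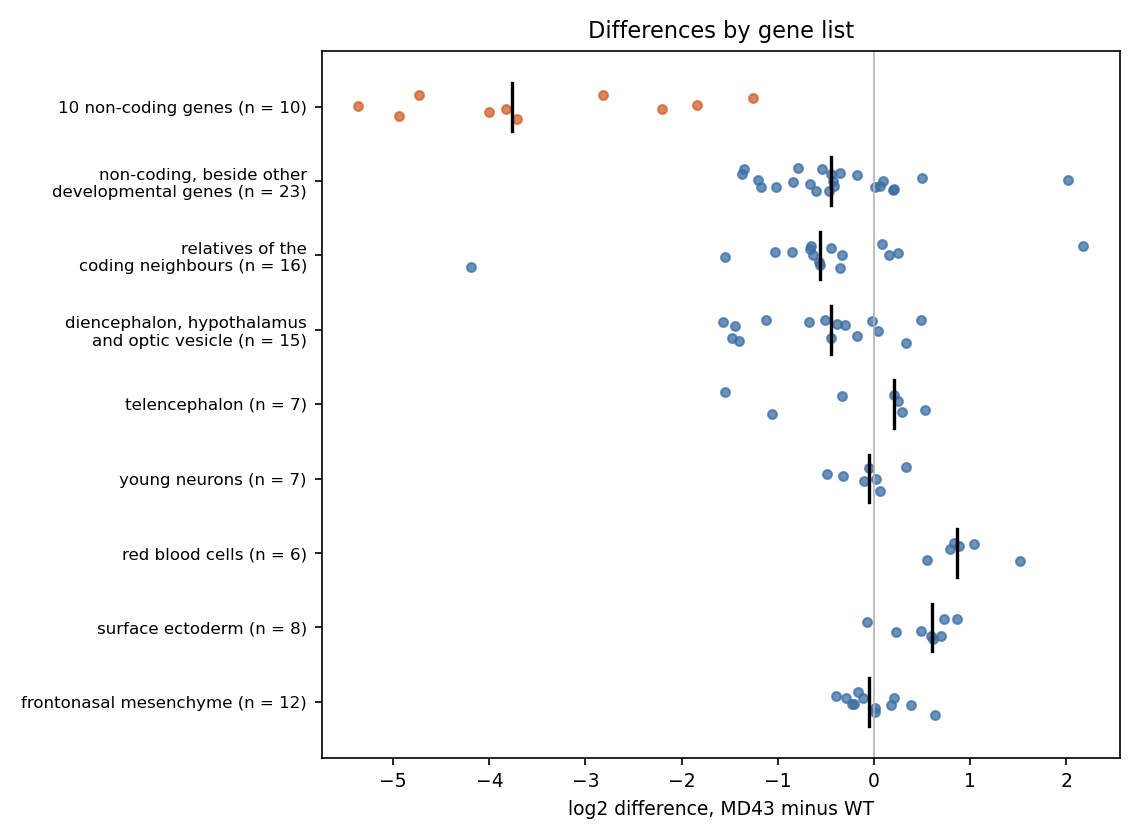
Log2 difference (MD43 minus WT) of single genes (points, spread vertically for view) in the 10 non-coding genes and in 8 lists of genes with at least 10 reads, with the median of each as a black bar. The 10 genes have a median of -3.77, the list medians run from -0.56 (relatives of the coding neighbours) to 0.86 (red blood cells), and the lists were written with earlier results of these data known.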

How the data were processed

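FNP tissue of 2 WT and 2 MD43 embryos was sequenced by the study as stranded poly(A) libraries from 100 ng of RNA. Group membership follows the sample labels. Reads were trimmed by the authors with Trim Galore 0.4.4, mapped with HISAT2 2.0.5 to GRCm38.p6 and quantified in SeqMonk. The deposited table gives log2 RPKM, normalised by the authors for transcript length and library size, as a single column for WT and another for MD43. Columns with their false discovery rate, fold change and average were not used here. With 1 value per genotype no test was run.

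Rows were matched to GENCODE M21 (33101 of 33708). The most frequent difference between the columns, -0.4758, was shared by 12862 rows, in 97.9% of which the log2 RPKM plus the log2 exon length was 1 constant. These were taken as genes without reads, with 0 reads counted as 0.9. Relative to the constant, the squared values gave the product of the reads of both libraries. Of products under 1000, 99.92% of 20250 in WT and 99.91% of 19839 in MD43 were whole within a tolerance of 0.0001, allowing for factors of 0.9. Recovery was tested on simulated data built with the same 0.9 for 0 reads and the same merging of libraries. That test cannot show whether these hold for the deposited values. Genes that reached 10 reads in either genotype were used for background and lists, and a difference was counted at 2-fold. The counting error is the root of the summed inverse reads over both libraries. Ratios of summed reads were scaled by the ratio of mean depths. Intervals and floors (3 reads) cover counting error only.

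The nearest coding gene was found by the gap between the Start and End bounds in the table. Motifs were searched in the 250 bases upstream of RefSeq starts of GRCm38.p6. Named genes were the 10 genes, their nearest coding genes, other coding genes within 250 kb that differed at least 2-fold, and up to 5 of each list with the largest difference. The value of 1 listed gene is not reported here. Smchd1, Zfp644, Gm28039, Gm37457, Gm37040, Gm37477, Gm29478, Ccnd1, Rspo1, Rspo2 and Lhx2 were named in addition after their values were seen. The genes and lists were chosen with earlier results of these data known. Alternatives were pseudocounts of 0.1 and 1 RPKM, centring, a floor of 3 reads, thresholds of 1.5-fold and 4-fold, the read filter, other definitions of the nearest gene and, chosen after seeing the data, RefSeq bounds. Python 3.11.15, pandas 2.3.3, numpy 2.4.6 and scipy 1.17.1 were used.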

Additional observations from a re-analysis of the deposited data

How the results depend on the processing

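All 10 non-coding genes stayed at least 2-fold lower in MD43 with a pseudocount of 0.1 RPKM, with centring on the median gene, with genotypes at or under 3 reads set to 3 reads and at a threshold of 1.5-fold, while 8 were listed at least 4-fold lower, among them A730094K22Rik, whose bound is 3.93-fold. With a pseudocount of 1 RPKM 4 were at least 2-fold lower, since most of the genes lie below 1 RPKM in MD43. The median log2 difference of -3.77 was -2.20 with a pseudocount of 0.1 RPKM, -0.87 with 1 RPKM and -2.83 with the floor of 3 reads. The nearest coding gene was at least 2-fold lower for 8 genes. This became 3 with a pseudocount of 1 RPKM, 4 at a threshold of 4-fold and 9 when nearness was taken between start sites, and 6 of the 7 genes that RefSeq lists had such a neighbour by RefSeq bounds, an alternative chosen after seeing the data. Over the 2 pseudocounts, the centring and the floor of 3 reads, 26 of 40 values of single genes stayed within the 95% counting interval of the reported value. No paired analysis was possible because each genotype has 1 merged value, and leaving out each replicate could not be run for the same reason. Depth limits every gene with at most 4 reads in each MD43 library, for which the size of the difference is known as a bound or within a wide counting interval alone.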
